A study of Bos taurus with 12 samples.

Results

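Granulosa cells of large bovine follicles were compared with granulosa cells of medium follicles on 4 microarrays, out of 12 in the study. The 2 arrays whose titles name granulosa cells of large follicles and the 2 whose titles name granulosa cells of medium follicles were taken. Medium follicles measured 5 to 10 mm and large follicles over 10 mm. The other 8 arrays held granulosa cells of small follicles (up to 5 mm) and theca cells of the same 3 sizes, 2 arrays for each. All 6 groups were untreated Bos taurus tissue from young cycling heifers that were not pregnant, and no strain, allele or agent separated them. The ovaries were in the follicular stage, with large antral follicles and without a corpus luteum, and travelled on ice. Each RNA sample was a pool, of 20 to 40 equally sized follicles by the extract protocol and of 20 to 40 ovaries from 6 to 10 animals by the design text. Replicates are labelled as separate and biological, without a word on animals common to both. Each p-value therefore rests on the spread of pools, and the spread of single animals is not seen.

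An antral follicle is a fluid-filled sac around the oocyte. Its avascular inner wall is made of granulosa cells, which answer follicle-stimulating hormone, turn theca androgens into oestradiol with aromatase, and secrete inhibin, activin and follistatin. As a follicle becomes dominant its granulosa cells gain the receptor for luteinising hormone and leave the cell cycle before ovulation. Leukocytes, among them macrophages, T cells and neutrophils, live in the vascular theca outside the basement membrane, and they can reach granulosa preparations when a follicle regresses, nears ovulation or is opened for collection.

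Values were signals on a linear scale, scaled by the authors, and changes are differences of log2(signal + 16), large minus medium. A fold is 2 to the power of that difference, so the fold of a dim gene is understated. A probe set was called when its limma adjusted p was under 0.05 among the 17236 probe sets tested. Errors are standard errors (SE) of that model, with 2 arrays in each group.

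Defining granulosa genes were bright on all 4: INHA, the inhibin alpha subunit, gave 6624 to 14212, and FST, which encodes the activin-binding follistatin, gave 5089 to 8489. On the medium and large theca arrays INHA gave 4317 to 7722 and FST 2940 to 6868, and the summed signal of the 18 granulosa markers was 32618 to 49718 in granulosa and 13732 to 34564 in theca, so these genes did not separate the layers. Over 10 theca markers, a list that includes STAR and CYP11A1 of the granulosa too, the summed signal was 4390 to 6448 on the 4 granulosa arrays, against 23704 to 35409 on the medium and large theca arrays. Large replicate 1 stood apart from the other 3 arrays. Its beta-actin 3′ to 5′ signal ratio, a measure of how complete the labelled RNA was, stood at 21.0, against 5.77 in large replicate 2 and 4.22 and 4.25 in the medium arrays. Its GAPDH 3′ to 5′ ratio was 1.15, against 0.984 to 1.04 on the other 3, and its EF1a ratio, 0.0873, lay within their range of 0.0749 to 0.124. Its median signal was 48.7, against 33.6 to 38.6. Its rank correlation with large replicate 2 was 0.896 across probe sets, while large replicate 2 and medium replicate 1 correlated at 0.930.

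The genes called higher in large-follicle than in medium-follicle granulosa were led by genes of leukocytes. There were 112 probe sets called higher in large follicles, 0.650% of those tested, and 5 called lower, 0.0290%. The rises spanned 1.60 to 4.55 on the log2 scale, with a median of 2.44, and stood for 90 named genes and 17 probe sets without a symbol. Of these genes, 33 belonged to one of the gene lists used here and 57 to none. The lists of macrophage, lymphocyte, blood myeloid and MHC class II genes held 10, 7, 4 and 2 calls, while limma called 0 members of the steroidogenesis list and 0 of the inhibin, activin and BMP list. In either direction 0.679% of tested probe sets were called, so 0 calls in lists of this size is near that share. Without adjustment, 1359 probe sets were higher and 638 lower at p under 0.05. Of the rises, 11 passed the test's filter (signal 22.5) through large-follicle granulosa alone, so they had to differ. Of the 117 called probe sets 0 had overlapping arrays, so separate groups for a called gene add nothing to its call. Over all tested probe sets the median change was 0.04. On pooled tissue, more cells of a type and more RNA per cell cannot be told apart.

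**Figure D1:**
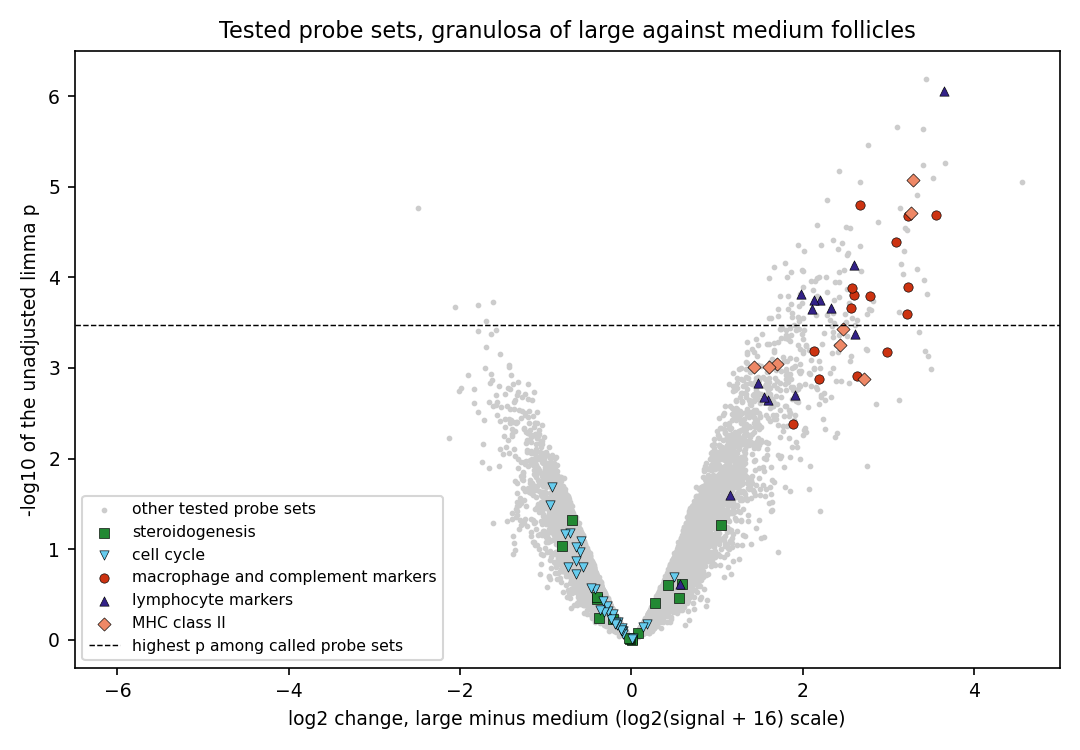
Each point is 1 of the 17236 tested probe sets, with the log2 change from medium to large follicles on the horizontal axis and −log10 of the unadjusted limma p on the vertical axis. Coloured symbols mark 5 gene lists, and the dashed line is at the highest p among called probe sets. Called points crowd the upper right, at changes of 1.60 to 4.55, and include macrophage, lymphocyte and MHC class II genes, while the steroidogenesis and cell cycle genes lie below the line.

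Macrophage genes held the most calls of any list. Of 15 markers on the array, 10 were called higher and 0 lower, the median change was 2.67, and both large arrays lay above both medium arrays for all 15. That order of arrays held for 22.0% of all non-control probe sets. C1QA, a chain of the complement protein C1q that resident macrophages secrete, gave 190 and 118 in medium follicles and 3081 and 763 in large ones. The groups did not overlap, and large replicate 1 was far above large replicate 2. The change was 9.35-fold (log2 3.23 ± 0.51, adjusted p = 0.0173).

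The other chains of C1q rose as well. C1QB gave 54.0 and 29.0 in medium follicles and 1384 and 297 in large ones, an 11.8-fold change (log2 3.56 ± 0.57, adjusted p = 0.0173). C1QC gave 44.5 and 33.0 against 1197 and 198 (9.35-fold, adjusted p = 0.0347). Both were near the dim end in medium follicles and high in large replicate 1.

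CD5L, a scavenger protein secreted by tissue macrophages, went from 48.8 and 24.3 to 1023 and 201, a 9.29-fold change (adjusted p = 0.0442). The remaining called markers were RNASE6, TYROBP, FCER1G, LAPTM5, CD14 and AIF1, with log2 changes of 2.57 to 3.09. TYROBP and FCER1G encode signalling adaptors of myeloid receptors, and CD14 the co-receptor for lipopolysaccharide. The 5 markers that were not called had changes of 1.89 to 2.98, among them the lysosomal marker CD68 (log2 2.98, adjusted p = 0.0659) and CSF1R, the receptor for macrophage colony-stimulating factor (log2 2.14, adjusted p = 0.0658). The summed signal of the 15 markers was 1891 and 886 in medium follicles and 19555 and 5895 in large ones.

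MHC class II genes, which present antigen to helper T cells and are called BoLA in cattle, were higher too. Of 9 on the array, 2 were called higher and 0 lower. The median change was 2.43, and both large arrays lay above both medium arrays for 8 of the 9 (88.9%, beside 22.0% of all non-control probe sets). BOLA-DRA, the invariant alpha chain of the DR molecule, gave 146 and 80.5 in medium follicles and 2204 and 651 in large ones. These values do not overlap, and both medium arrays were close to the small-follicle arrays (95.4 and 105). The change was 9.74-fold (log2 3.28 ± 0.48, adjusted p = 0.0121).

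BOLA-DRB3, the polymorphic DR beta chain, gave 166 and 71.6 against 2052 and 689.9, a 9.58-fold change (adjusted p = 0.0173). A second probe set of BOLA-DRB3 was called as well (log2 3.19, adjusted p = 0.0190). MHC genes are a family of near-identical copies, so these probe sets may have read more than 1 of them. The 6 members that were tested and not called had adjusted p of 0.0513 to 0.0889. Among them, BOLA-DMB, which helps to load peptide, had a log2 change of 2.47 and CTSS, the protease that trims the invariant chain, one of 2.71. The summed signal of the 9 genes was 824 and 326 in medium follicles and 7830 and 2397 in large ones.

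T cell and cytotoxic genes followed. Of 17 lymphocyte markers, 7 were called higher and 0 lower, with a median change of 1.91. Both large arrays lay above both medium arrays for 14 of the 17 (82.4%, beside 22.0% of all non-control probe sets). CCL5, a chemokine released by activated T cells and natural killer cells, gave 37.9 and 5.3 in medium follicles and 557 and 297 in large ones. It was nearly dark in small follicles (2.4 and 2.9) and did not overlap between medium and large. The change was 12.5-fold (log2 3.64 ± 0.44, adjusted p = 0.00755), the largest among probe sets with a symbol.

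PRF1, the pore-forming perforin of cytotoxic granules, gave 28.5 and 21.3 against 391 and 133 (6.04-fold, adjusted p = 0.0299). CD8A, the co-receptor of cytotoxic T cells, gave 34.0 and 24.0 against 324 and 109 (4.61-fold, adjusted p = 0.0393). CD2, an adhesion molecule of T and natural killer cells, gave 25.9 and 13.3 against 272 and 92.4 (5.04-fold, adjusted p = 0.0417). In each of these the groups were separate and large replicate 1 was the higher of the large arrays. CD3D and CD3E, chains of the T cell receptor complex, and IL2RG, the shared receptor chain of interleukins, were called with log2 changes of 1.98, 2.11 and 2.14. Further probe sets of CD14, CD2 and CD3D had changes of 1.89, 1.91 and 1.80 and were not called. CD4, the co-receptor of helper T cells, overlapped between the groups (log2 0.57, adjusted p = 0.713).

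B cell surface markers were dim on all 4 arrays. MS4A1, which encodes CD20, gave 13.7 and 6.5 against 21.4 and 3.9, and CD79A, of the B cell receptor, gave 5.2 and 5.1 against 4.7 and 6.9. Both were below the test's filter, a signal of 22.5. IGHM, the heavy chain of immunoglobulin M, gave 67.2 and 30.2 in medium follicles and 682 and 636 in large ones. The large arrays were close to each other and far above the medium ones. The change was 10.9-fold (log2 3.44 ± 0.40), with the lowest adjusted p of the comparison, 0.00755, shared with CCL5. JCHAIN, which joins immunoglobulins into polymers and was picked out after its values were seen, also rose (33.0 and 27.6 against 282 and 154, log2 2.28, adjusted p = 0.0371). The summed signal of the 17 lymphocyte markers was 467 and 247 in medium follicles and 3850 and 1423 in large ones.

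Genes of neutrophils and monocytes rose in part. Of 12 blood myeloid markers, 4 were called higher and 0 lower, with a median change of 1.31. Both large arrays lay above both medium arrays for 8 of the 12 (66.7%, beside 22.0% of all non-control probe sets). S100A8, a calcium-binding calgranulin stored in neutrophils, gave 102 and 29.1 in medium follicles and 932 and 519.8 in large ones. The groups were separate, and medium replicate 1 was the higher of the medium arrays. The change was 9.78-fold (log2 3.29 ± 0.49, adjusted p = 0.0121).

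S100A12, another calgranulin, gave 204 and 73.4 against 1002 and 1576 (9.08-fold, adjusted p = 0.0240). FCN1, the lectin ficolin of monocytes, gave 75.7 and 35.1 against 372 and 393 (5.82-fold, adjusted p = 0.0399). In these, unlike the macrophage genes, large replicate 2 was as high as large replicate 1 or higher. NCF1, a subunit of the phagocyte oxidase, gave 52.4 and 41.0 against 372 and 200.4 (4.64-fold, adjusted p = 0.0228). S100A9, the partner of S100A8, was not called on the probe set with the higher mean over all 12 arrays (log2 2.13, adjusted p = 0.0803). Its other probe set, brighter on the medium and large granulosa arrays, was called (log2 2.48, adjusted p = 0.0301). That probe set was 1 of the 11 that passed the filter through large-follicle granulosa alone. The granule proteins LTF and MPO overlapped between the groups, with changes of -0.88 and 0.70. The summed signal of the 12 genes was 1619 and 1414 in medium follicles and 4138 and 3638 in large ones.

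**Figure D2:**
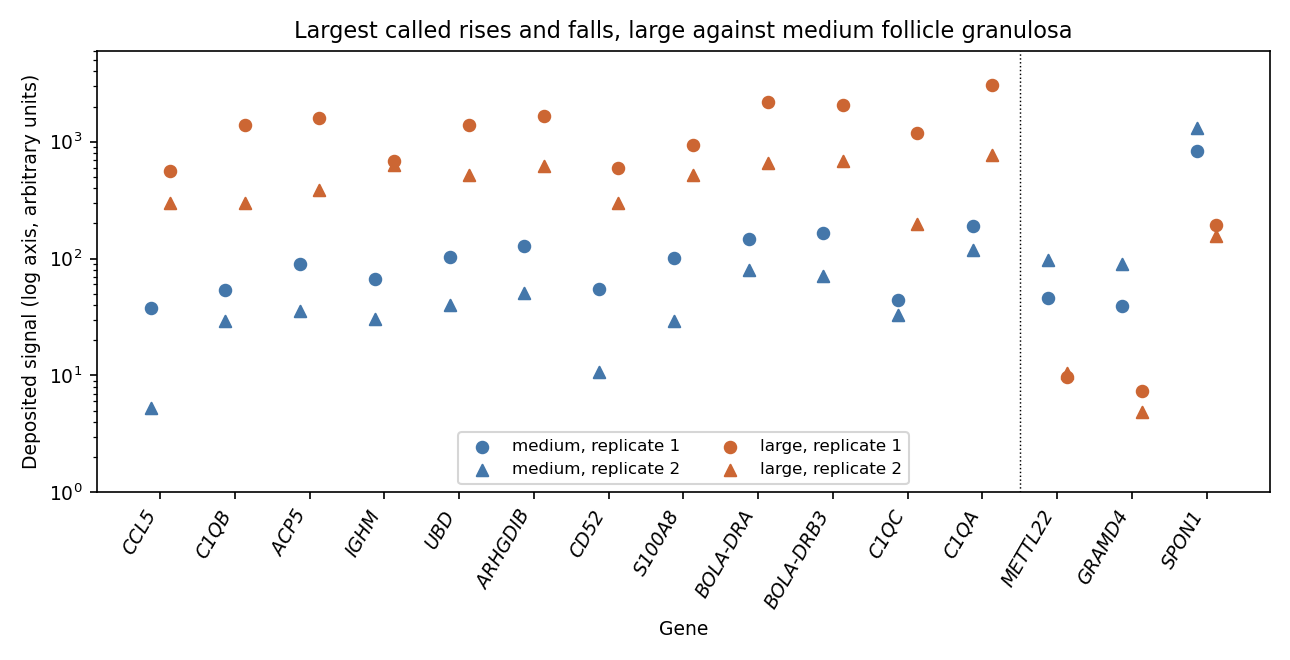
Deposited signals on a log axis, in arbitrary units, for the 12 largest called rises and the 3 called falls with a gene symbol, with medium arrays in blue, large arrays in orange, replicate 1 as circles and replicate 2 as triangles. Genes were shown only if the 2 large arrays lay on 1 side of the 2 medium arrays, so that separation follows from the choice. C1QA, for instance, gave 190 and 118 in medium and 3081 and 763 in large follicles.

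Large rises outside the marker lists were of similar size. UBD, a ubiquitin-like protein induced by inflammatory cytokines, gave 102 and 40.3 in medium follicles and 1387 and 519.7 in large ones (10.6-fold, adjusted p = 0.00996). CD52, a small glycoprotein of lymphocytes and monocytes, gave 55.1 and 10.7 against 593 and 301 (10.1-fold, adjusted p = 0.0301). Both were separate between the groups and higher in large replicate 1 than in large replicate 2. ACP5, the tartrate-resistant acid phosphatase of macrophages and osteoclasts, gave 90.6 and 35.3 against 1610.2 and 388 on 1 probe set (11.0-fold, adjusted p = 0.0371). Another ACP5 probe set was called (log2 3.42), and 1 was not (log2 0.59).

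UCP2, a carrier of the inner mitochondrial membrane, was the member of the antioxidant list that was called, 1 of 30. It gave 7.6 and 7.3 in medium follicles and 214 and 94.7 in large ones. The medium signals were at the dim end of the array, and the probe set passed the filter through the large-follicle and the theca arrays. The change was 6.80-fold (log2 2.77 ± 0.37, adjusted p = 0.0119). The median of the antioxidant list was 0.10, close to the 0.08 of all non-control probe sets.

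Chemokines and their receptors counted 4 calls among 29 genes, all higher, with a median change of 0.68. Both large arrays lay above both medium arrays for 18 of the 29 (62.1%, beside 22.0% of all non-control probe sets). CXCR4, the receptor for CXCL12, gave 73.4 and 32.4 in medium follicles and 635 and 284 in large ones (6.72-fold, adjusted p = 0.0442). CXCL16, a membrane-bound chemokine and scavenger receptor, gave 234 and 118 against 1476 and 632 (5.37-fold, adjusted p = 0.0322). CCL8, a monocyte chemoattractant, gave 18.8 and 11.6 against 120 and 89.4 (3.86-fold, adjusted p = 0.0228). CCL5, given above, was the fourth. CXCL12 itself overlapped between the groups (log2 0.28, adjusted p = 0.887), and so did TNF (log2 0.54, adjusted p = 0.784), while IL6 was under the filter. Interferon response genes had 0 of 21 called, although 20 of them were higher on average and their median change was 0.79. The highest among those tested were IFI16 (log2 1.65, adjusted p = 0.129) and the immunoproteasome subunit PSMB8 (log2 1.63, adjusted p = 0.0738).

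Proteases showed 2 calls among 26 proteases and inhibitors, with a median change of 0.76. PLAU, the urokinase plasminogen activator, gave 82.2 and 58.9 in medium follicles and 704 and 319 in large ones. It did not overlap, and its change was 5.72-fold (log2 2.52 ± 0.44, adjusted p = 0.0250). CTSH, a lysosomal cysteine protease, gave 590.4 and 238 against 2563 and 1696 (5.36-fold, adjusted p = 0.0301). The large arrays lay above both medium arrays, of which replicate 1 was the brighter. PLAT, the tissue plasminogen activator, and PLAUR, the urokinase receptor, overlapped between the groups, with changes of 0.18 and 0.66.

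Among 29 matrix and basement membrane genes, 1 was called. TNC, the matrix protein tenascin C, gave 28.0 and 8.8 in medium follicles and 165 and 127 in large ones. The large arrays were close to each other and above both medium arrays. The change was 4.86-fold (log2 2.28 ± 0.35, adjusted p = 0.0161). A dimmer TNC probe set was under the filter, with a change of 0.11. The list's median was 0.25 on the deposited scale and -0.01 when arrays were brought to a common median.

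**Figure D3:**
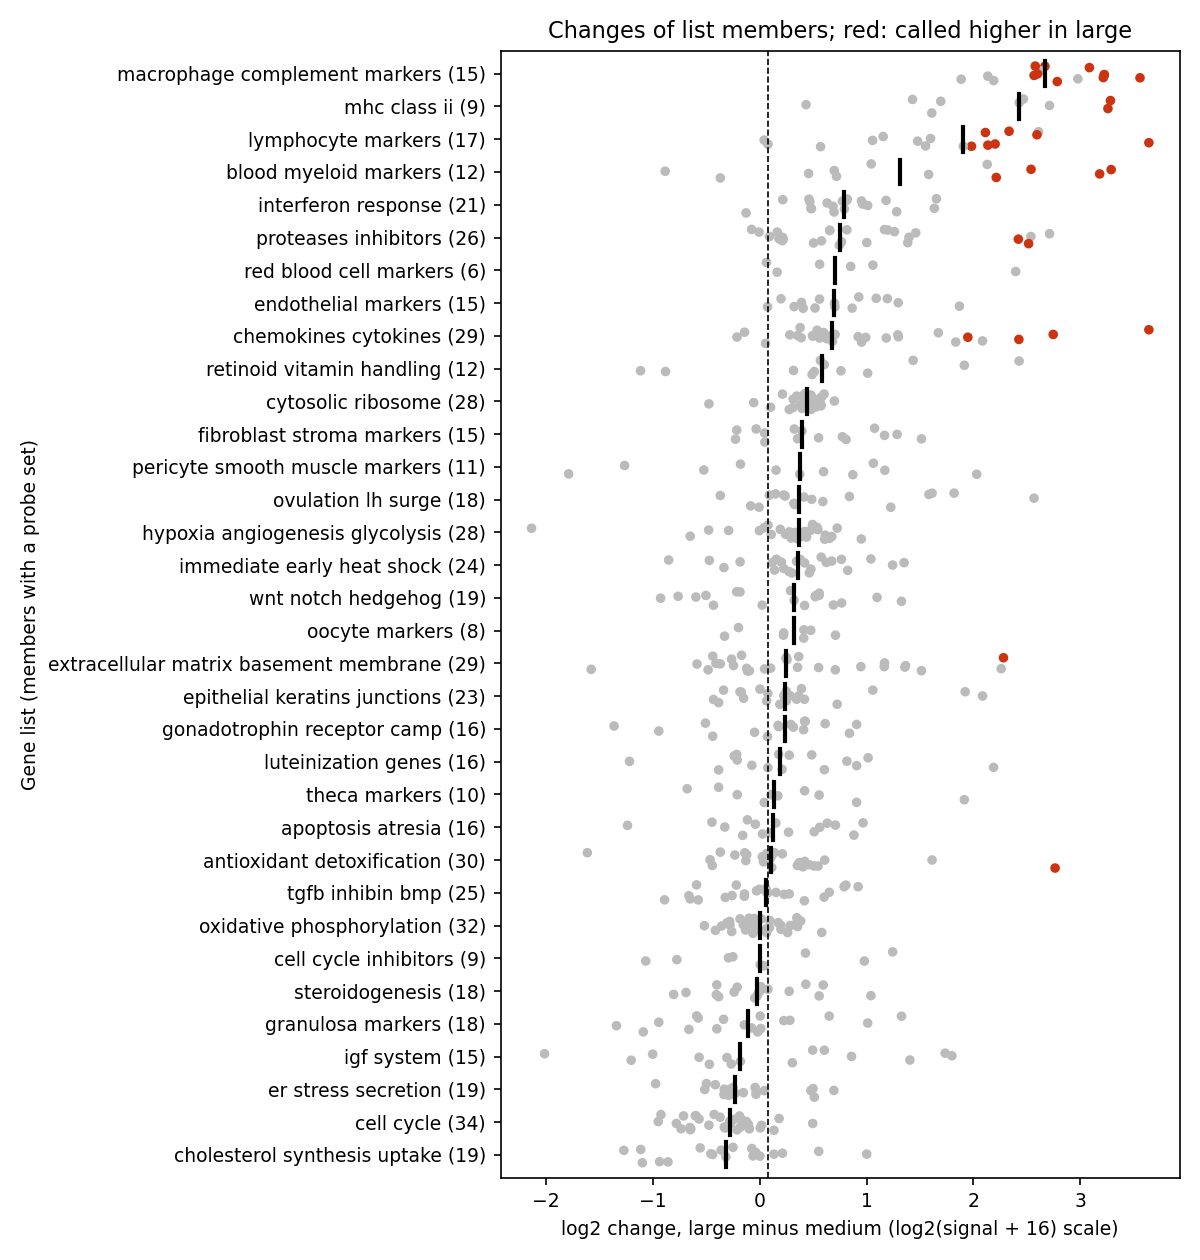
Each point is 1 gene of a list, placed by its log2 change from medium to large follicles, with called rises in red, the list's median as a black bar, and the number of genes with a probe set in brackets. The dashed line is the median of all non-control probe sets, 0.08. The medians of the macrophage (2.67), MHC class II (2.43), lymphocyte (1.91) and blood myeloid (1.31) lists lie far to its right, and those of the cell cycle (-0.28) and cholesterol (-0.32) lists to its left.

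A few called rises were higher in large replicate 2, or close to equal in both large arrays. They are given here after their values were seen. IGF2, the insulin-like growth factor that theca secretes in cattle, gave 62.9 and 70.7 in medium follicles and 247 and 396 in large ones on the called probe set (log2 1.99 ± 0.36, adjusted p = 0.0301). Its brighter probe set gave 169 and 201 against 498 and 848 (log2 1.74, adjusted p = 0.0513), and a dim one overlapped (log2 -0.23). APOA2, an apolipoprotein of high-density lipoprotein, gave 7.9 and 24.4 against 126 and 145 (log2 2.28, adjusted p = 0.0442). On the called probe sets the groups were separate.

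TNFAIP6, which builds the hyaluronan matrix around the oocyte at ovulation, gave 19.1 and 0.8 against 116 and 126 on the called probe set (log2 2.50, adjusted p = 0.0442). Its brighter probe set gave 76.4 and 23.0 against 377 and 307 and was not called (log2 2.57, adjusted p = 0.0703). MS4A8, a membrane protein of the CD20 family, gave 177 and 169.9 against 493 and 825 (log2 1.79, adjusted p = 0.0298). SULT1A1, a sulphotransferase of phenols and oestrogens, gave 392 and 221 against 1656 and 1159.9 (log2 2.17, adjusted p = 0.0315), here with large replicate 1 higher.

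Few probe sets were called lower, 5 against 112 called higher, but lower signals as such were not rare. Over all tested probe sets, both large arrays lay below both medium arrays for 18.3% and above them for 20.0%. With arrays at a common median these shares were 28.2% and 13.7%, and limma called 10 lower and 99 higher. SPON1, which encodes the secreted matrix protein spondin 1, gave 832 and 1312 in medium follicles and 192 and 156 in large ones. The large arrays were close to each other, and the small-follicle arrays (794 and 711) resembled the medium ones. The fall was 5.60-fold (log2 -2.49 ± 0.39, adjusted p = 0.0166). A dimmer SPON1 probe set gave 106 and 98.9 against 54.6 and 34.9, with a change of -0.98 that was not called (adjusted p = 0.431).

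GRAMD4, a membrane protein tied to apoptosis in human cells, gave 39.5 and 89.5 in medium follicles and 7.3 and 4.9 in large ones (log2 -1.79 ± 0.36, adjusted p = 0.0405), and a brighter GRAMD4 probe set was not called (log2 -1.52, adjusted p = 0.118). METTL22, a protein methyltransferase, gave 46.3 and 98.0 against 9.6 and 10.5 (log2 -1.69 ± 0.35, adjusted p = 0.0463), while its other probe set overlapped (71.3 and 109 against 76.9 and 63.1, log2 -0.28). The called probe sets of both were dim in large follicles, so their folds of 3.47 and 3.24 are compressed by the added 16. The 9 named genes with the next lowest p and separate groups were not called. Among them RPL24, a ribosomal protein, had a change of -1.79 (adjusted p = 0.0523) on its dimmer probe set and 0.20 on a far brighter one, and IGF1R, the receptor of insulin-like growth factor 1, one of -2.01 (adjusted p = 0.0962) that a second IGF1R probe set did not share (0.09).

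The genes that define granulosa function gave no call between medium and large follicles. Of 18 granulosa markers 0 were called, 7 were higher and 11 lower, with a median change of -0.11. Over all tested probe sets 0.679% were called, so 0 of 18 is near that share and says little about these genes. CYP19A1, the aromatase that makes oestradiol, gave 3114 and 1819.7 in medium follicles and 3134 and 1820.5 in large ones. The groups covered the same range, and both were far above small follicles (113 and 126). The change was 0.01 ± 0.63 (adjusted p = 0.998).

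INHBA, the beta subunit of activin A and inhibin A, gave 6565 and 5362 against 5342 and 2959 (log2 -0.58 ± 0.50, adjusted p = 0.730). INHA gave 7521 and 6624 against 14212 and 8657, so that both large arrays were above both medium ones, but the change did not pass (log2 0.65 ± 0.41, adjusted p = 0.599). FST gave 7409 and 7118 against 8489 and 5089, and overlapped (log2 -0.14, adjusted p = 0.945).

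The gonadotrophin receptors took opposite signs, and neither was called. FSHR, the receptor for follicle-stimulating hormone, gave 108 and 332 in medium follicles and 153 and 53.0 in large ones (log2 -0.94 ± 0.64, adjusted p = 0.628). LHCGR, the receptor for luteinising hormone, was read by the probe set with the highest mean over all 12 arrays, theca included. It gave 8.0 and 21.9 against 41.4 and 39.8 (log2 0.91 ± 0.36, adjusted p = 0.329). Another, brighter on both large granulosa arrays, gave 8.9 and 7.5 against 51.9 and 47.9 (log2 1.45 ± 0.43, adjusted p = 0.150). On both of these LHCGR probe sets the large arrays were close to each other and above the medium arrays, at signals low enough for the added 16 to shrink the change. A further LHCGR probe set, under the filter, went the other way (10.2 and 9.5 against 3.7 and 7.3, log2 -0.27). AMH, anti-Müllerian hormone of growing follicles, gave 130.0 and 616 against 250.3 and 122, with overlap (log2 -0.66, adjusted p = 0.732).

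Steroid enzymes gave no call between medium and large follicles. Of 18 steroidogenesis genes 0 were called, 8 were higher and 10 lower, with a median of -0.02. With 0.679% of all tested probe sets called, 0 of 18 is again near that share. Both large arrays lay above both medium arrays for 2 of them (11.1%, beside 22.0% of all non-control probe sets). They lay below for 3 (16.7%, beside 15.5%), close to that share. HSD17B4 was 1 of those below (560.3 and 460 against 296 and 322, log2 -0.69, adjusted p = 0.425). STAR, which carries cholesterol into mitochondria, gave 2782 and 811 against 949 and 1391 (log2 -0.38, adjusted p = 0.887). CYP11A1, the side-chain cleavage enzyme, gave 2824 and 2982 against 1793 and 3502 (log2 -0.21, adjusted p = 0.893). HSD3B1, which makes progesterone, had a change of 0.08 (adjusted p = 0.961), and HSD17B1, which makes oestradiol from oestrone, one of -0.02 (adjusted p = 0.994). The theca genes CYP17A1 and INSL3 had changes of 0.56 and 0.04 and were not called (adjusted p = 0.787 and 0.981).

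**Figure D4:**
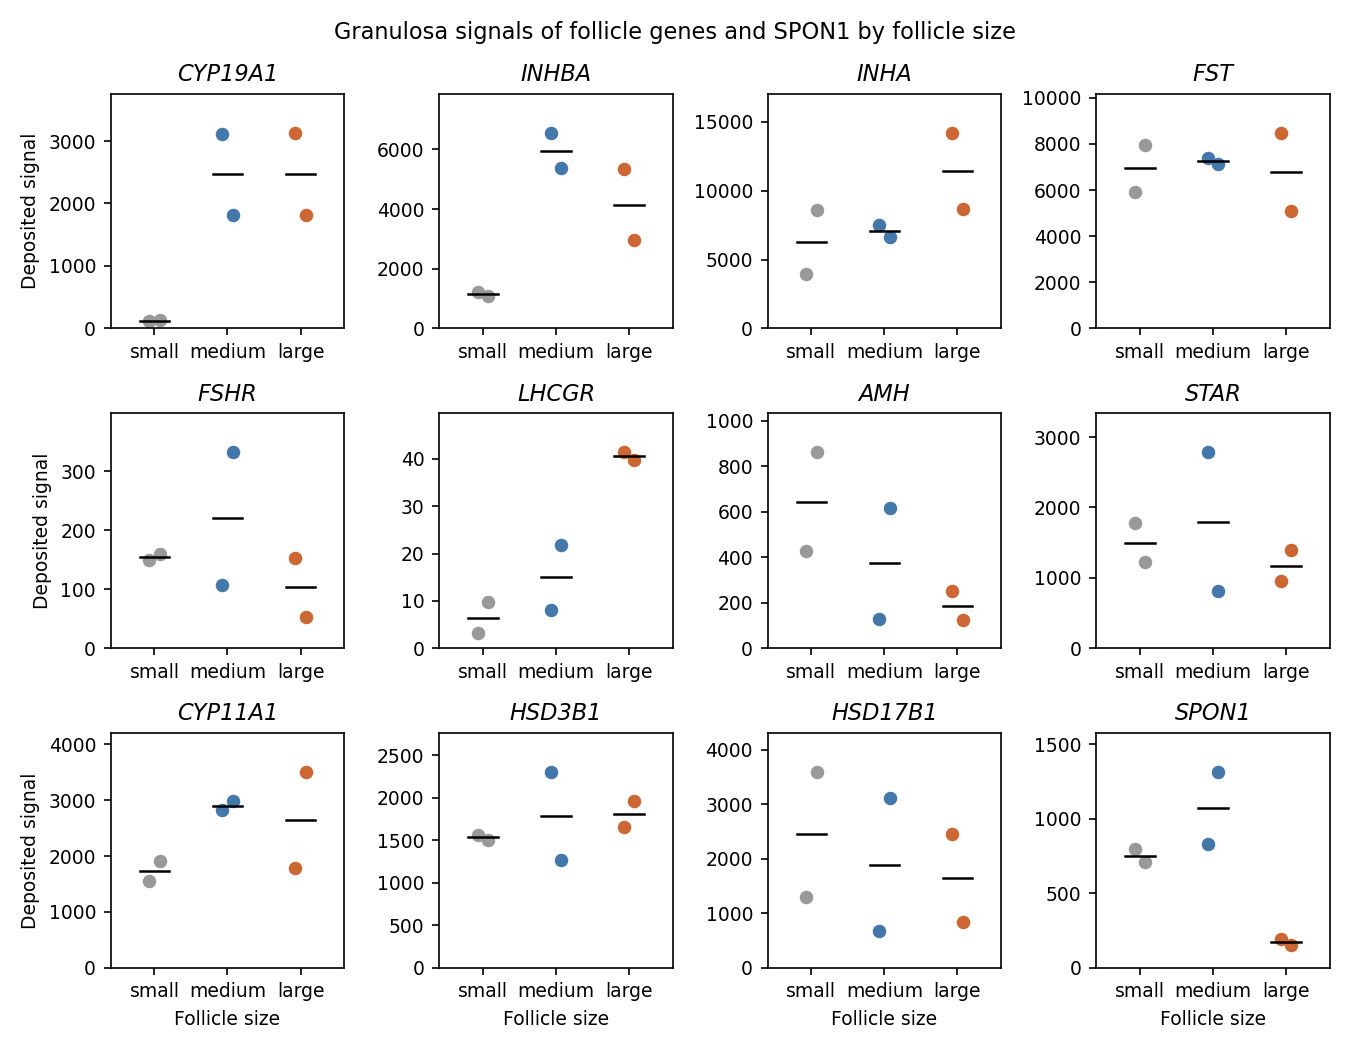
Deposited signals of 11 follicle genes and of SPON1 on the 6 granulosa arrays by follicle size, 1 point per array and a bar at the mean of the 2 arrays. CYP19A1 has the same range in medium and large follicles (about 1820 to 3134), LHCGR is 41.4 and 39.8 in large against 8.0 and 21.9 in medium follicles, and SPON1 is 192 and 156 in large against 832 and 1312.

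Other programmes of follicle growth gave no calls but differed in their medians. Cell cycle genes were lower for 29 of 34, with a median of -0.28, and both large arrays lay below both medium arrays for 11 of them (32.4%, beside 15.5% of all non-control probe sets). Those with the lowest p were CCND1, cyclin D1 (log2 -0.92, adjusted p = 0.310), and BIRC5, the mitotic protein survivin (log2 -0.95, adjusted p = 0.367). BIRC5 gave 355 and 601 in medium follicles and 227 and 236 in large ones. The median was lower in large replicate 1 (-0.46) than in large replicate 2 (-0.11).

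Cholesterol synthesis and uptake genes were lower for 14 of 19, with a median of -0.32. Both large arrays lay below both medium arrays for 8 (42.1%, beside 15.5% of all non-control probe sets). LSS, the cyclase that makes lanosterol, gave 181 and 549 in medium follicles and 123 and 121 in large ones (log2 -1.27, adjusted p = 0.266). Medium replicate 2 was the high array for several of these genes, among them INSIG1 (368 and 995 against 362 and 203) and FDFT1 (279.7 and 939 against 214 and 252). The median of the list was negative with arrays scaled as deposited, to a common median (-0.58) and by quantiles (-0.26).

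Genes of ovulation and luteinisation had no call on the probe set that stood for them. Among 18 ovulation genes the median was 0.37, and 8 had both large arrays above both medium arrays (44.4%, beside 22.0% of all non-control probe sets). CD44, the hyaluronan receptor, gave 144 and 47.7 against 337 and 344 (log2 1.82, adjusted p = 0.0844). PTX3 gave 30.7 and 30.5 against 160.1 and 99.5 (log2 1.61, adjusted p = 0.106), yet small follicles were as high (225 and 156). Of 16 luteinisation genes 10 were higher and 6 lower, and their median of 0.19 became 0.02 at a common median. The highest of them, OXT, the oxytocin precursor made by luteinising granulosa cells in cattle, gave 127 and 107 against 565 and 617 (log2 2.19, adjusted p = 0.0756). SPP1, osteopontin, outside these lists, gave 3119 and 752 against 8789 and 4914 (log2 2.09 ± 0.72, adjusted p = 0.248), high in both large arrays but with a wide spread in medium follicles. PTGS2, the inducible prostaglandin synthase, and AREG, amphiregulin, which mark the response to the luteinising hormone surge, gave at most 35.0 on the 4 arrays.

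In the insulin-like growth factor system 0 of 15 genes were called on the probe set that stood for them, and the median was -0.18. IGFBP3, a binding protein of these growth factors, gave 53.4 and 35.9 against 278 and 133, separate but not called (log2 1.80, adjusted p = 0.0539). Ribosomal protein genes of the cytosol were higher for 26 of 28, with a median of 0.45, but the median was 0.17 with arrays at a common median and -0.01 after quantile normalization. Oxidative phosphorylation genes had a median of 0.01 over 32 genes. It went to -0.26 at a common median, where the median over all tested probe sets was -0.18.

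Markers of blood vessels and red cells were higher in large follicles without a call. On the deposited scale all 15 endothelial markers had a positive change, with a median of 0.70. Both large arrays lay above both medium arrays for 10 of them (66.7%, beside 22.0% of all non-control probe sets). After quantile normalization these shares were 46.7% and 16.3%. ENG, endoglin of vessel walls, gave 38.2 and 8.5 against 183 and 73.3 (log2 1.87, adjusted p = 0.0803). VWF, von Willebrand factor, and KDR, the receptor for vascular endothelial growth factor, were below 20 on all 4 arrays. The summed endothelial signal was 305 and 207 in medium follicles and 872 and 603 in large ones.

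Of 6 red cell markers 5 were separate and higher (83.3%, beside 22.0% of all non-control probe sets), with a median of 0.71. HBB, beta globin, gave 34.7 and 12.1 against 579 and 50.4 (log2 2.40, adjusted p = 0.165), which was high in large replicate 1 alone. The summed red cell signal was 68.8 and 34.4 in medium follicles and 720 and 104 in large ones. Fibroblast markers summed to 9971 and 2290 in medium follicles and to 5700 and 8517 in large ones, which overlap. The part of blood, vessel and wall cells in the leukocyte rises was not tested.

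Large replicate 1 was the higher large array for 104 of the 112 called rises, by a median of 1.05 on the log2 scale, against 0.12 over all tested probe sets. Medium replicate 1 was likewise the higher medium array for 100 of the 112. The 8 rises higher in large replicate 2 were S100A12, S100A9, FCN1, IGF2, TNFAIP6, APOA2, MS4A8 and a probe set without a symbol. Set against the mean of the medium arrays, macrophage markers had a median of 3.38 in large replicate 1 and 1.96 in large replicate 2. Lymphocyte markers had medians of 2.51 and 1.32, MHC class II genes 3.11 and 1.72, and blood myeloid markers 1.74 and 0.52. Over all tested probe sets the medians were 0.07 and 0.00.

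The calls depended on single arrays. Without large replicate 1, limma called 0 probe sets (lowest adjusted p = 0.153), 1343 had an unadjusted p under 0.05, and the median change of the 117 called probe sets, by size, was 1.91. Without medium replicate 2 the calls were again 0 (lowest adjusted p = 0.190), with 1021 at an unadjusted p under 0.05 and a median size of 2.09. Without large replicate 2 there were 487 calls, 108 of them among the 117, and without medium replicate 1 there were 113, with 68 shared. IGHM kept a change of 3.02 to 3.87 over the 4 omissions and SPON1 one of -2.16 to -2.81. In all 4 leukocyte lists the count of calls was 0 without large replicate 1 or without medium replicate 2, with macrophage medians of 1.96 and 2.33. How far the beta-actin ratio of large replicate 1 bears on the rises was not tested.

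**Figure D5:**
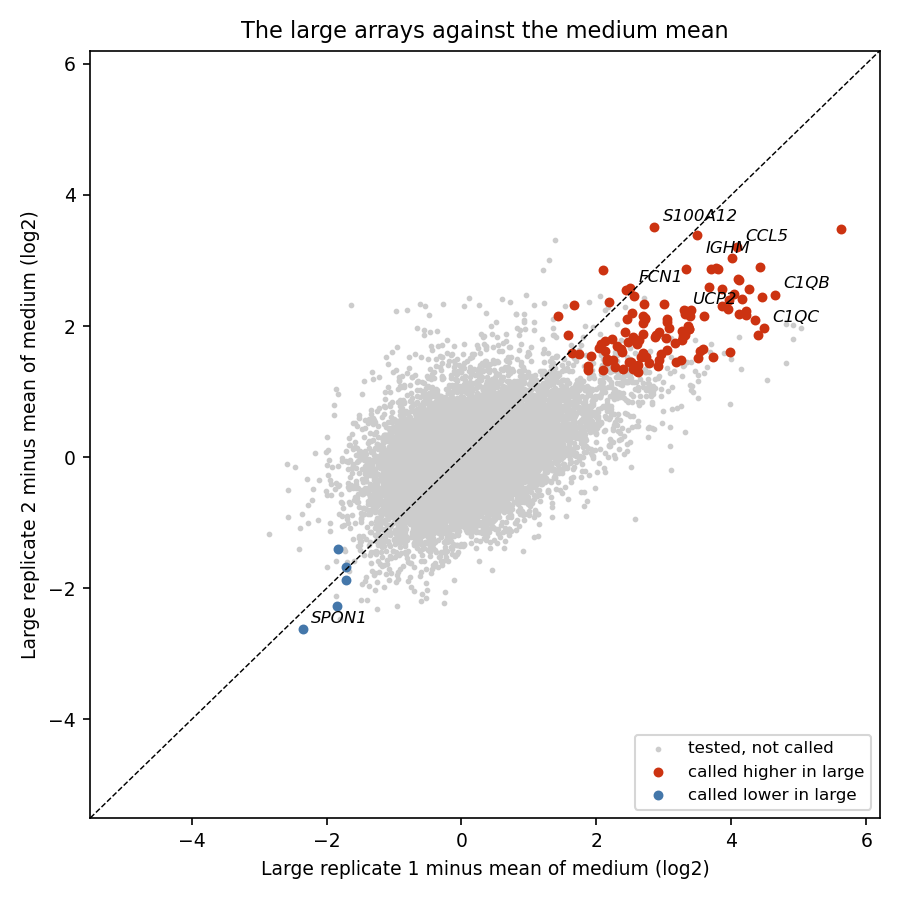
Each tested probe set is placed by its log2 difference from the mean of the medium arrays in large replicate 1 (horizontal) and in large replicate 2 (vertical). Red points are the 112 called rises, blue points the 5 called falls, and the dashed line marks equal values. Most red points lie below the line, since 104 of the 112 rises were larger in large replicate 1, while the blue points lie close to it.

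The same size step in theca gave 0 calls in limma (0% of 17236, lowest adjusted p = 0.0735, with 539 at an unadjusted p under 0.05). For the 112 rises of granulosa the theca change was positive in 67 and had a median of 0.16, from -1.45 to 3.42. Over all tested probe sets the theca median was -0.01, and the share of positive theca changes was not computed. The macrophage list had a theca median of 0.76, the lymphocyte list 0.15, the MHC class II list -0.04 and the endothelial list -1.07. The difference between the granulosa and theca changes was called for 4 probe sets, 0.0232% of those tested, with 1297 at an unadjusted p under 0.05.

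IGHM, UCP2, IGF2 and a probe set without a symbol were those 4. In medium and large theca, IGHM gave 222 and 122 and then 141 and 72.0, which overlap. The difference was 4.07 ± 0.57 on the log2 scale (adjusted p = 0.0336). UCP2 gave 100.1 and 131 in medium theca and 45.5 and 39.9 in large theca, a difference of 3.92 ± 0.53 (adjusted p = 0.0336). IGF2 gave 1578 and 1903 in medium theca and 594 and 652 in large theca, a difference of 3.45 ± 0.51 (adjusted p = 0.0446). None of the 4 theca changes was called by itself. The count of 4 became 0 without large granulosa replicate 1, without medium granulosa replicate 2 or without any single one of the medium and large theca arrays, 2 without medium granulosa replicate 1 and 67 without large granulosa replicate 2.

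Theca arrays of large follicles also held signal of granulosa genes. CYP19A1 gave 912 and 184 in medium theca and 1633 and 4279 in large theca. Large theca replicate 2 was above both large granulosa arrays, and large theca replicate 1 was below both. Both large theca arrays were above both medium granulosa arrays for 72 of the 112 rises, and the share over all probe sets was not computed. The rises were picked for medium granulosa signals below the large ones, so a high count was favoured in advance. They were led by leukocyte genes and 0 of the 18 granulosa markers were called, so that count does not measure granulosa signal. The purity of the layers was not tested.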

How the data were processed

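Transcript abundance was read on 1-colour Affymetrix bovine arrays from biotin-labelled total RNA extracted with Trizol, per the labels' protocols. The authors deposited signal intensities, 1 per probe set and array, on a linear scale. For the software behind them the sources used here name nothing. The deposited scaling was kept: every array had a 2% trimmed mean of 125.03 to 125.04 across 24128 probe sets. Groups came from the titles. The description field names theca for all 12 samples, titles and source names granulosa for 6, and the levels of the markers bear on this choice.

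Of the probe sets, 112 controls were left out. Among 24016 others, 13292 had 1 symbol in the platform annotation (9155 genes), 86 had several and were not named, and 10638 had none. RefSeq's genes of ARS-UCD2.0 held the Entrez identifier of 13263, and 0 symbols changed. Testing required a group mean of log2(signal + 16), in any of the 6 groups, above the 40th percentile of the non-control values (signal 22.5). limma 3.58.1 in R 4.3.3 fitted 1 mean per group over all 12 arrays (6 residual and 7.92 prior degrees of freedom, prior SD 0.376), with an empirical Bayes test and Benjamini-Hochberg adjustment over the 17236 probe sets. Adjusted p-values in the text are limma's. An exact permutation test of 2 against 2 arrays cannot go below p = 0.333. The number of arrays limits the precision. Figures used matplotlib 3.10.9 under Python 3.11.15.

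The probe set with the highest mean stood for a gene in the 34 lists, which were described by counts and medians without a test. Genes and lists were chosen with earlier results of these data known. The rule named 13 key genes, up to 4 called members with the largest change per list, the 12 largest called rises and falls with separate groups, filled with uncalled ones of the lowest p, and 2 members of lists without a call. Genes beyond it were named after their values were seen, as were all list members given in ranges. Some genes that the rule named are not reported here. Alternatives changed the added constant, filter, scaling, arrays fitted, variance trend and replicate block, or left out arrays. The fit was tested on simulated data. Deviations of large and medium granulosa arrays with the same replicate number correlated at 0.0727 over tested probe sets, which cannot settle whether the numbers pair pools. The labels do not say that they do, and the main fit used no pairing. No sequence was used.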

Additional observations from a re-analysis of the deposited data

Results flagged for a closer look

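For 4 probe sets the data gave a large-minus-medium change that differed between granulosa and theca in a test of the difference (limma, adjusted p under 0.05). The differences were 4.07 for IGHM, 3.92 for UCP2, 3.45 for IGF2 and 4.01 for a probe set without a symbol here. In each, both large granulosa arrays were above both medium ones and both large theca arrays below both medium theca arrays, except IGHM, where the theca arrays overlapped. The probe set without a symbol gave 29.0 and 23.3 in medium and 405 and 292 in large granulosa, and 597 and 333 in medium and 265 and 198 in large theca. A second IGF2 probe set had a difference of 2.91 that was not called (adjusted p = 0.167). Groups of 2 arrays are too small to test single arrays as outliers.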

How the results depend on the processing

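With 117 calls in granulosa as reported, limma called 4 on log2(signal + 1), 26 on log2(signal + 64), 38 without the filter, 213 with the replicate block over 12 arrays and 312 with the replicate block over 4 arrays. Leaving out 1 array gave 0 to 487 calls, and leaving out small theca replicate 1 and large granulosa replicate 1 together gave 0. The other settings gave 83 to 151 calls. The 4 theca omissions, added after seeing the data, gave 45 to 88: the granulosa changes stay the same there and only the spread estimate has fewer arrays. For the difference between granulosa and theca, called for 4 probe sets as reported, the count was 0 on log2(signal + 1), on log2(signal + 64) and without the filter, 1 without small theca replicate 1 and large granulosa replicate 1, and 0 to 67 with 1 array left out. Nothing in the labels used here says that the replicate numbers pair pools, so the block counts are given without a reading.

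Of the 13 key genes, 9 changed sign under some setting, and none was called. CYP19A1 was -0.061 after quantile normalization, -0.27 at a common median, and -0.38 to 0.39 with 1 array left out. INSL3 was -0.22 at a common median and -0.76 to 0.85 with 1 array left out. HSD3B1 was -0.19 at a common median and -0.35 to 0.50 with 1 array left out. With 1 array left out, HSD17B1 was -1.11 to 1.07, CYP11A1 -0.69 to 0.27, FST -0.51 to 0.22, CYP17A1 -0.38 to 1.50, STAR -1.26 to 0.50 and AMH -1.72 to 0.39. Without large replicate 1 and small theca replicate 1, CYP19A1 was -0.38, INSL3 -0.11 and CYP11A1 0.27. Apart from what each setting's construction shows, the cause was not tested.

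With 2 arrays per group, a group left with 1 array is assumed to vary like the others. Signals near or under 22.5 limit what LHCGR, GRAMD4, METTL22 and UCP2 can show, and medium-follicle signals of many rises are near that level.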

Other observations

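The largest rise of all belonged to a probe set without a symbol, which gave 109 and 28.6 in medium and 3655 and 820 in large follicles (log2 4.55 ± 0.67, adjusted p = 0.0121). There were 2 falls without a symbol, 1 of them with signals of 122 and 238 against 36.0 and 22.6 (log2 -2.06) and the other with 70.4 and 98.8 against 11.9 and 21.9 (log2 -1.61). Metabolic genes among the rises were SDS, serine dehydratase, called on both of its probe sets (log2 2.68 and 2.27), and SLC2A5, a fructose transporter (76.3 and 64.6 against 251 and 244, log2 1.61). Called genes outside the lists also included the leukocyte genes CORO1A, RAC2, FOLR2, ITGB2 and IRF8, with changes of 2.51 to 3.14, and the T cell genes TCRA (2.77), CD8B (2.55), CXCR6 (2.42) and CD247 (2.16). TCRA was called on 1 probe set alone, and its other tested probe sets had changes of 0.03 to 1.21. A further IRF8 probe set was not called (1.88).

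A set of list members was high in medium replicate 1 and large replicate 2 and low in the other arrays of their group. PLAUR gave 819 and 227 in medium and 269.6 and 1746 in large follicles, and PLAT 3312 and 898 against 929 and 4119. XCL1, a lymphocyte chemokine by annotation, gave 6461 and 1824 against 2694 and 11118, far above the T cell markers CD3D and CD3E. These genes were picked out after their values were seen.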
